A study of Mus musculus with 11 samples.

Results

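Six2+ cells of the embryonic mouse kidney were compared with the Six2- cells sorted beside them, by messenger RNA sequencing of flow-sorted cells. The comparison uses 6 of the 11 libraries of the series, 3 of Six2+ and 3 of Six2- cells, chosen by their labels. All 6 came from developing kidneys at E16.5, a stage of late gestation, of the CFW strain with the genotype Six2TGC/+, so that both groups carry the same transgene. In this line, as generally known and not from the labels, regulatory sequence of Six2 drives a fusion of a tetracycline transactivator, green fluorescent protein and Cre. The sort therefore follows the reporter, which can outlast the Six2 transcript in a cell. The Six2- fraction is whatever else the sort collected, a mixture of cell types. The labels do not describe the gate, and they do not say whether the libraries of a group came from separate embryos or litters, so the p-values cover variation among these libraries, part or all of which may be technical.

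Six2 is a homeobox transcription factor that keeps nephron progenitors of the cap mesenchyme from differentiating. These cells sit around the tips of the branching ureteric bud, receive signals from it and from the surrounding stroma, and in response to Wnt ligands turn into the epithelium of the nephron. The stroma, the vessels, resident macrophages, the ureteric epithelium and the maturing nephron tubules make up the rest of the kidney at this stage.

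Levels are on the RPKM scale, reads per kilobase of transcript scaled to library size, and are given as the mean ± SD of 3 libraries or as the values of replicates 1, 2 and 3 in that order. Differences are Six2+ minus Six2- on the scale of log2(level + 1), with their SE, which understates the change of genes near 0. A gene is called higher or lower where its limma p-value, adjusted by Benjamini-Hochberg over all genes tested, is below 0.05. Of 24427 genes with a level, 11882 had a mean of at least 1 over the 6 libraries and were tested. Of these, 2440 (20.5%) were called higher and 2149 (18.1%) lower in Six2+ cells. With a log2 difference of at least 1 as well, 603 (5.07%) were higher and 1229 (10.3%) lower. Every count of a gene list below is to be read against these shares, and the median log2 difference over all genes tested was 0.12. Rescaling all libraries to the same total gave 1546 higher and 2106 lower genes, so that higher genes made up 42.3% of calls in place of 53.2%. Shifting them to the same median gave 43.0%. Leaving out Six2- replicate 2 left 1618 genes higher. The libraries of the sorts did not overlap for 29.9% of genes tested with Six2+ above and for 22% with Six2+ below.

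The low levels imply 31.4 to 42.0 M reads in the Six2+ and 25.8 to 44.0 M reads in the Six2- libraries. The labels held against the markers. Six2 stood at 315, 351 and 354 in Six2+ and at 2.72, 2.9 and 17 in Six2- libraries, which follows from the sort and was not used as a result. Six2- replicate 3 thus stood above the other 2 libraries of its group for Six2. Of the 603 genes higher by at least 1 in Six2+ cells it had the highest level of its group for 280 (46.4%). Six2- replicate 1 had it for 211 (35.0%) and replicate 2 for 112 (18.6%). Median levels of these genes were close, at 3.19, 3.08 and 3.29. Of the 1229 genes lower by at least 1, Six2+ replicate 2 had the highest level of its group for 541 (44.0%). Haemoglobin transcripts took 0.399%, 2.07% and 3.81% of the summed levels in the Six2- libraries and 0.0056% to 0.0231% in the Six2+ libraries. The share of ribosomal protein genes was 23.5% in Six2+ replicate 2, against 13.6% to 19.0% elsewhere. Whether these features act on other genes was not tested. Of all calls, 70.7% were kept without Six2- replicate 2, 73.5% without Six2- replicate 1 and 80.8% to 88.6% without any other single library. No call turned to the opposite direction, which was unlikely from the start because these fits share most libraries. In bulk RNA fewer cells of a type and less RNA per cell cannot be told apart.

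**Figure D1:**
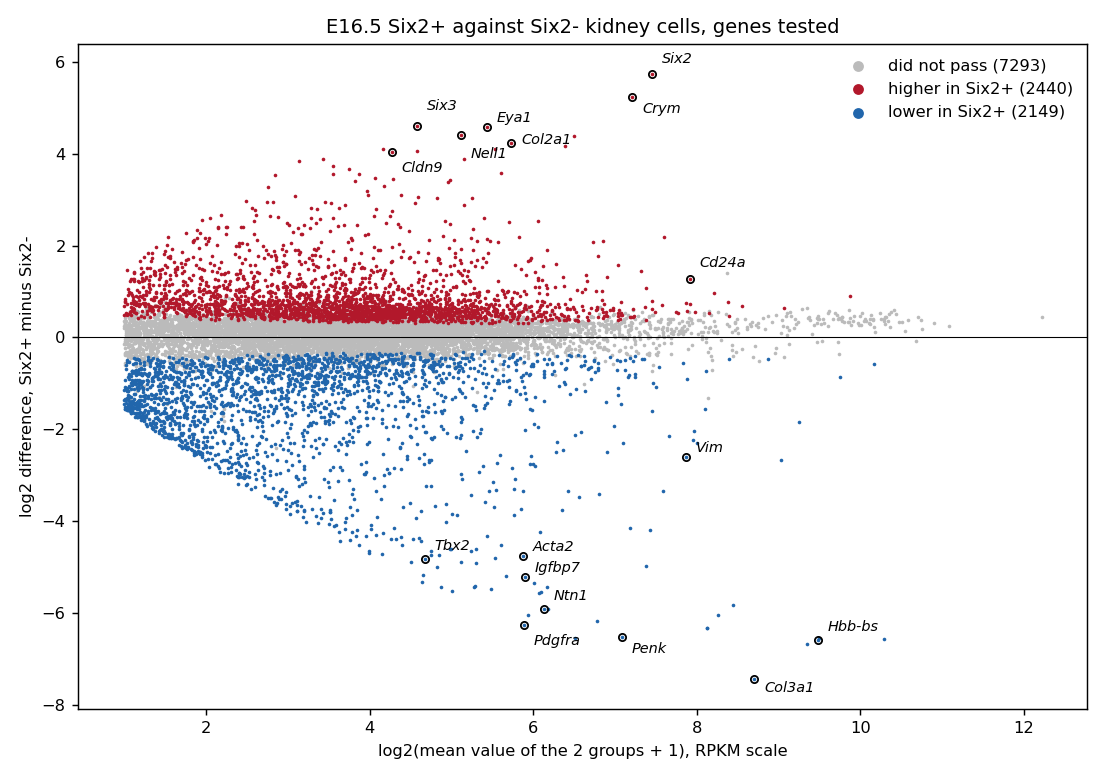
Difference between the sorts for every gene tested. The x axis is log2 of the mean of both group levels plus 1 and the y axis the log2 difference, with 2440 genes higher in Six2+ cells in red, 2149 lower in blue and the rest in grey; Six2 and Crym lie highest, and Col3a1, at -7.43, lies lowest.

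Genes of the cap mesenchyme programme led the Six2+ side. Eya1, a phosphatase and transcriptional partner of Six2, stood at 88.5, 70.8 and 85.8 in Six2+ and at 2.49, 1.35 and 4.02 in Six2- libraries (log2 difference 4.58, SE 0.25, limma adjusted p = 1.95e-06). Crym, which binds thyroid hormone in the cytosol, stood at 281, 368 and 213 against 5.79, 5.11 and 8.94 (5.24, SE 0.24, limma adjusted p = 7.42e-07). For both genes every Six2+ library lay above every Six2- library. Of 20 cap mesenchyme regulators listed, 19 were tested, 17 were higher and 1 was lower, with a median log2 difference of 1.84; the 17 include Six2 itself. Osr1, the zinc finger gene of the earliest kidney mesenchyme, stood at 55.5 ± 5.28 against 4.67 ± 2.21, and Pax2, a paired box regulator of the whole nephron lineage, at 88.9 ± 25.5 against 6.83 ± 3.62. Sall1, a zinc finger gene needed for kidney development, rose by 1.91 (SE 0.20), Wt1, the zinc finger gene mutated in Wilms tumour, by 1.26 (SE 0.17) and Meox1 by 2.95 (SE 0.24). Dach1 was the single member that did not pass (0.31). Tcf21, a basic helix-loop-helix gene of stroma and podocytes that is also present in the cap, was lower, at 34.2, 35.7 and 32.5 against 260, 205 and 144 (-2.50, SE 0.20, limma adjusted p = 1.93e-05). Its level in the 3 Six2+ libraries was thus far from 0.

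Several secreted, matrix and surface proteins also differed by a log2 difference above 4. Nell1, a secreted protein known for bone formation, stood at 62.4, 63.8 and 69.7 in Six2+ and at 2.05, 1.97 and 2.32 in Six2- libraries (4.41, SE 0.12, limma adjusted p = 1.39e-07). Spock2, a matrix proteoglycan, stood at 173, 145 and 194 against 6.19, 4.65 and 12.4 (4.38, SE 0.28, limma adjusted p = 5.49e-06). No library of one sort reached those of the other for either gene. This was a condition of being named among the largest rises, so it adds no support. Col2a1, a cartilage collagen, stood at 88.1, 68.5 and 140 against 1.96, 2.51 and 11.5 (4.24, SE 0.50). Cldn9, a tight junction claudin best known from the inner ear, stood at 35.4 ± 4.96 against 1.21 ± 0.376 (4.05, SE 0.17), and was the single claudin gene called higher where 5 of 7 tested were lower. Those 5 were Cldn1 (-4.09, SE 0.21), Cldn5 (-2.06, SE 0.39), Cldn11 (-1.94, SE 0.35), Cldn6 (-1.51, SE 0.25) and Cldn7 (-1.29, SE 0.17). The claudin list holds 23 genes, and with no filter 8 were lower. Members near 0 in Six2+ cells enter the test only through their Six2- level, so these counts are descriptions. Fam107a, an actin-associated protein, rose by 4.11 (SE 0.26) to 32.7 ± 0.738. Among genes that differed by at least 1, the highest levels in Six2+ cells belonged to Cd24a, a small surface glycoprotein (342 ± 79.3 against 138 ± 13.4), Six2, the leucine zipper gene Tsc22d1 (318 ± 40.8 against 68.6 ± 6.28) and Crym.

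Promoters of 4 of these genes, the 250 bases before the transcript start, are shown because they belong to leading genes and differ widely in their CG content. Sequences and positions are from RefSeq, build GRCm38.p6, read 5′ to 3′ on the gene's strand, with each CG dinucleotide in capitals. Six2, Nell1 and Spock2 lead the Six2+ side and Col3a1 the Six2- side. Eya1, Crym and Penk are named only.
Six2 promoter, chr17:85688255-85688504, minus strand: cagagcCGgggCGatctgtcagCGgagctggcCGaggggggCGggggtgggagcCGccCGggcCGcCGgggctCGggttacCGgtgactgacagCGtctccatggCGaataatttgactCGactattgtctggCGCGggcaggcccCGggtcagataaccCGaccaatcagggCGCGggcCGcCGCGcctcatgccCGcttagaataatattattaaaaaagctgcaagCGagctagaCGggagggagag
Nell1 promoter, chr7:49975100-49975349, plus strand: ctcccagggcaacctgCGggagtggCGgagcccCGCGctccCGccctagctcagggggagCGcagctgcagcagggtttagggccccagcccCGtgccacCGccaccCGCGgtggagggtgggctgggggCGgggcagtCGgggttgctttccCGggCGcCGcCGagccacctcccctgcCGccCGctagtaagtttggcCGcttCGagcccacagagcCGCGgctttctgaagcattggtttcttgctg
Spock2 promoter, chr10:60106007-60106256, plus strand: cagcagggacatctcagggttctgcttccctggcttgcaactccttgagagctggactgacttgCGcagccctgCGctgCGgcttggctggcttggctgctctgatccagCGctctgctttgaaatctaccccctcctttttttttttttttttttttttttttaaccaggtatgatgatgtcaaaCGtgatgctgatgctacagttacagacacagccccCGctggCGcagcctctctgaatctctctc
Col3a1 promoter, chr1:45311288-45311537, plus strand: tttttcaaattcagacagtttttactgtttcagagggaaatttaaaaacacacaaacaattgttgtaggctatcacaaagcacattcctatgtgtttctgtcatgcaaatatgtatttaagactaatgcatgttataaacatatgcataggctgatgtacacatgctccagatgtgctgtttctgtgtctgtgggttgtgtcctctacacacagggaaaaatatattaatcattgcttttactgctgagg

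The Six2 promoter holds 26 CG dinucleotides and the Nell1 promoter 22, more than 90.7% and 85.4% of the 27025 RefSeq promoters of this length. Spock2 has 7, near the median of 6. Col3a1 has none, while 91.7% of all promoters hold at least 1. Both strands read the same for this motif. Of the genes higher and lower by at least 1, 72.8% and 74.0% have an entry, too few to compare the sets, so these counts describe single promoters. Six2 lies on chromosome 17 (85662736 to 85688254), Eya1 on chromosome 1 (14168953 to 14311035), Crym on chromosome 7 (120186380 to 120201989), Nell1 on chromosome 7 (49975350 to 50863289) and Pdgfra on chromosome 5 (75151322 to 75198206), all annotated as protein-coding; levels are per gene, not per exon.

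**Figure D2:**
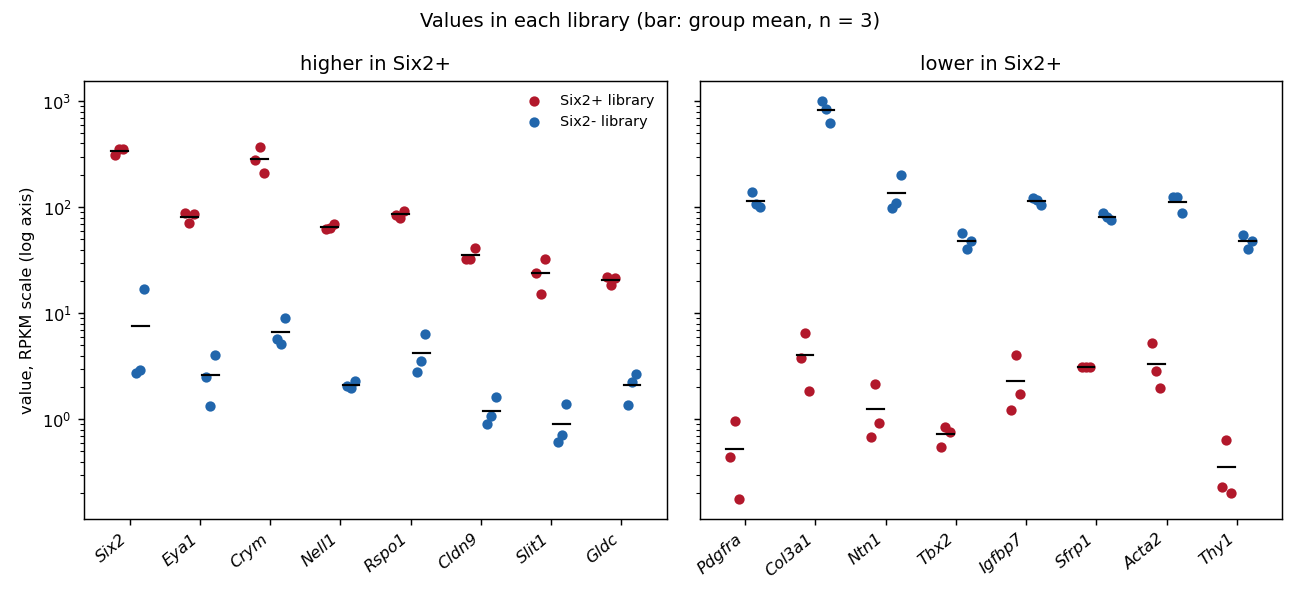
Levels of 8 genes higher and 8 genes lower in Six2+ cells in each library, on the RPKM scale with a log axis; points are libraries and bars group means (n = 3). For each gene shown the libraries of one sort all lie above those of the other, and Six2- replicate 3 at 17 is the highest Six2- point for Six2.

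Homeobox relatives of Six2 were also higher. Six3, the neighbour of Six2 on chromosome 17 and otherwise known as a regulator of eye and forebrain, stood at 52.9, 41.9 and 39.8 against 0.798, 0.616 and 1.24 (4.61, SE 0.17, limma adjusted p = 2.64e-07). In Cited1+ libraries of the same stage, which carry a Cited1tagRFP reporter in place of Six2TGC and stand in another table, so that no test was made, Six3 stood at 0.0615 ± 0.107, Six2 at 313 ± 52.9 and Uncx at 157 ± 21.6. Whether the Six3 level goes with the Six2TGC line or with progenitor cells in general was not tested. Six4 rose by 0.89 (SE 0.15), and Six5 was at the threshold (0.53, SE 0.18, limma adjusted p = 0.0464), with its call gone in 9 of 13 alternatives, among them leaving out any of the Six2+ libraries or Six2- replicates 1 or 2. Within 1 Mb of Six2, 8 genes were tested. Besides Six2 and Six3, Lrpprc (0.51, SE 0.11), a regulator of mitochondrial RNA, and the phosphatase gene Ppm1b (0.44, SE 0.12) were called higher, and Prkce (-0.50, SE 0.17) lower. All 3 calls ended when libraries were rescaled to the same total. The Ppm1b call also ended without Six2+ replicate 1 or Six2- replicate 2. The Prkce call also ended without Six2+ replicates 2 or 3, without Six2- replicates 1 or 2, with a filter at a mean of 5 and with no filter. Prepl (0.10), Srbd1 (0.25) and Camkmt (-0.08) did not pass.

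Among transcription factors, several families lay mainly on one side. Of 311 genes in the families plotted, 174 were tested, 63 (36.2%) were higher and 48 (27.6%) lower. Hox genes, which pattern the body axis, were the largest such group: of 39, 31 were tested, 23 were higher and none was lower, with a median log2 difference of 1.06. Hoxd12 stood at 23.2, 18.9 and 20 in Six2+ and at 0.762, 0.68 and 1.1 in Six2- libraries (3.56, SE 0.15, limma adjusted p = 4.78e-07). Genes of the middle of the B cluster followed, with Hoxb9 at 2.47 (SE 0.23), Hoxb8 at 2.17 (SE 0.29), Hoxb5 at 1.96 (SE 0.27) and Hoxb6 at 1.75 (SE 0.20). The group 11 genes, whose joint loss in mice stops kidney induction, were present in both sorts and all called higher. Hoxa11 stood at 45.9 ± 0.408 against 28.2 ± 0.234 (0.69, SE 0.10) and Hoxd11 at 49 ± 7.24 against 27.2 ± 1.68 (0.82, SE 0.14), both below the Hox median. Hoxc11, at 11.6 ± 2.83 against 4.14 ± 1.02 (1.29, SE 0.21), lay above it. Uncx, a paired-type homeobox gene, rose by 4.18 (SE 0.27) and Lmx1b, a LIM homeobox gene also active in podocytes, by 2.96 (SE 0.26). Forkhead genes lay on both sides, with 7 of 20 higher and 5 lower (median 0.06). Foxd2 (2.54, SE 0.19), Foxc1 (1.84, SE 0.14), Foxp1 (1.82, SE 0.17) and the cilium regulator Foxj1 (1.53, SE 0.17) rose, and Foxl1 (-2.58, SE 0.30), Foxp2 (-2.05, SE 0.17) and Foxd1 (-1.09, SE 0.22) fell. The lower forkhead genes numbered 3 without Six2+ replicate 1, Six2- replicate 1 or Six2- replicate 2 and when libraries were rescaled, 2 with a filter at a mean of 5, and 8 with the replicate block. Ets genes did so too, with 4 of 16 higher and 6 lower (median 0.03). Etv4 (2.60, SE 0.32) and Etv5 (1.11, SE 0.16), induced by FGF and GDNF signals, rose, and the endothelial gene Fli1 (-3.61, SE 0.15), the myeloid gene Spi1 (-2.04, SE 0.17) and Ets1 (-1.96, SE 0.14) fell.

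Other families lay on the Six2- side. Members near 0 in Six2+ cells enter the test only through their Six2- level, so counts of these families are descriptions. Tbx2, a T-box repressor, stood at 0.546, 0.851 and 0.765 in Six2+ and at 56.8, 40.3 and 48.3 in Six2- libraries (-4.84, SE 0.16, limma adjusted p = 2.11e-07), and Tbx3 (-3.74, SE 0.18) and Tbx18 (-2.40, SE 0.17), which acts in the ureteric mesenchyme, fell with it. All 3 Gata genes tested fell, Gata6 by most (-3.92, SE 0.23). Of 6 Snail, Twist and Zeb genes, repressors of epithelial genes, 5 fell: Twist1 (-3.95, SE 0.17), Twist2 (-3.90, SE 0.14), Snai2 (-2.97, SE 0.31), Zeb2 (-2.53, SE 0.32) and Snai1 (-1.21, SE 0.18). Meis1, a cofactor of Hox proteins that marks stroma, stood at 5.66, 5.36 and 5.22 against 68.6, 68.6 and 67.9 (-3.44, SE 0.11), while Pbx2, a gene of its partner family, rose by 1.01 (SE 0.12). The Hedgehog effectors Gli1 (-2.40, SE 0.17) and Gli2 (-2.70, SE 0.16) fell, as did the retinoic acid receptors Rarg (-3.10, SE 0.15) and Rarb (-1.66, SE 0.12).

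Some abundant factors lay close in both sorts. For 19 of the 174 factors tested the 95% interval of the log2 difference lay within 0.5 of 0. The share of all genes tested that meet this was not counted. Nr2f2, an orphan nuclear receptor, stood at 130, 97.9 and 117 in Six2+ and at 124, 116 and 112 in Six2- libraries, a difference of -0.04 (interval -0.36 to 0.29). Smad4, the shared mediator of TGF-beta and BMP signals, stood at 38 ± 2.09 against 34.5 ± 2.63 (0.14, interval -0.13 to 0.40), and Smad5 at 38.7 ± 7.22 against 37.9 ± 3.91. The libraries of both sorts overlapped for all 3 genes, which nearly follows from their choice by this interval.

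**Figure D3:**
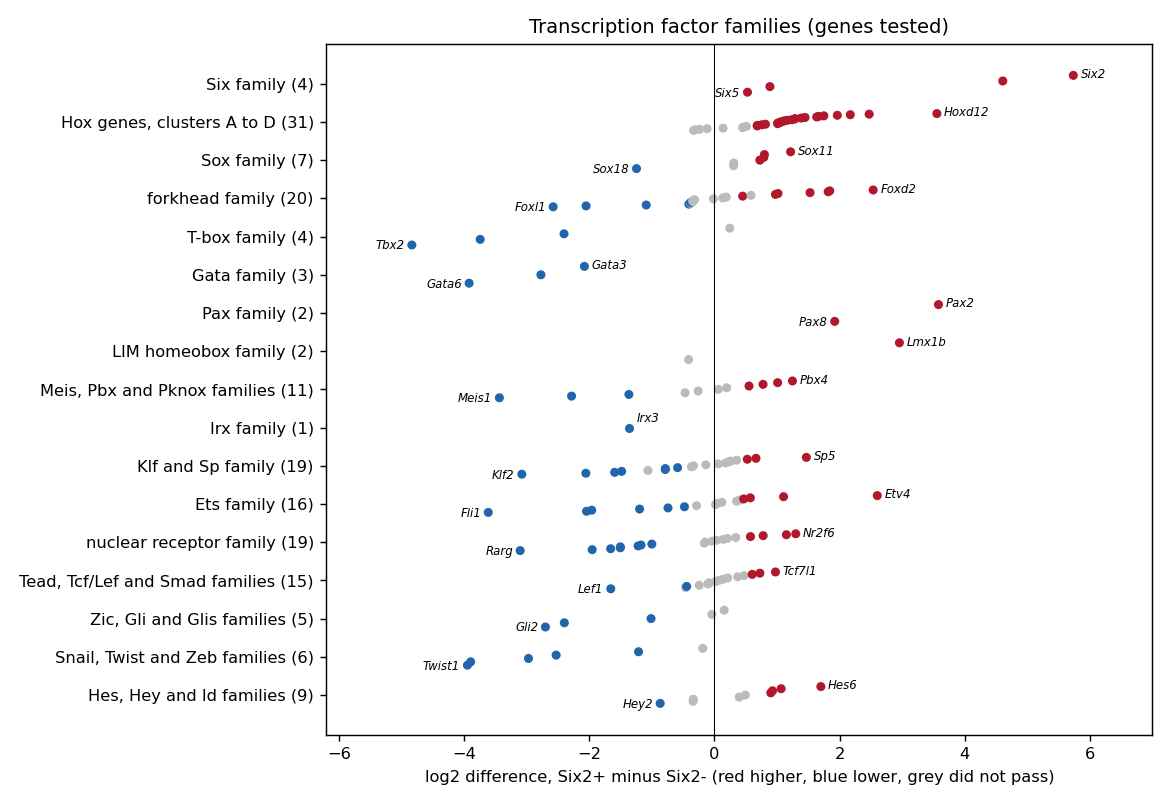
Log2 difference of each transcription factor tested, by family, with the number tested in brackets; points are genes, red called higher, blue called lower and grey not passing, with the extreme called genes of a family named. Hox genes lie mainly to the right, with 23 of 31 called higher and none lower, and T-box, Gata and Snail, Twist and Zeb genes mainly to the left.

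Secreted signals divided between the sorts. Of 55 secreted growth factors and antagonists tested, 13 were higher and 31 lower, with a median of -0.77. The lower ones numbered 15 with a filter at a mean of 5. On the Six2+ side stood Rspo1, an enhancer of Wnt signalling, at 85.4, 79.7 and 93.3 against 2.79, 3.52 and 6.4 (4.11, SE 0.23, limma adjusted p = 2.09e-06). Fgf20, a growth factor known to keep progenitors alive, stood at 13.4, 17.4 and 15.5 against 0.208, 0.23 and 0 (3.84, SE 0.16, limma adjusted p = 4.24e-07). No Six2- library exceeded 6.4 for Rspo1 or 0.23 for Fgf20. Wnt4, the signal of the change to epithelium, stood at 63 ± 2.8 against 11.7 ± 2.79 (2.36, SE 0.17). On the Six2- side stood the Wnt antagonists Sfrp1 (3.13 ± 0.0176 against 81.5 ± 5.52) and Dkk1 (0.31 ± 0.0967 against 19 ± 0.431), and Figf, the vascular growth factor VEGF-D (-4.24, SE 0.23). Gdnf, the cap's signal to the ureteric bud, stood at 19.7, 15.4 and 24.5 in Six2+ and at 24.8, 29.8 and 41.9 in Six2- libraries, so that it was not higher in the progenitor sort. It was called lower (-0.66, SE 0.22, limma adjusted p = 0.041), with adjusted p above 0.05 in 6 of 13 alternatives: without Six2+ replicates 1 or 2, without Six2- replicates 2 or 3, with no filter and when rescaled to the same total.

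Of 58 growth factor receptors tested, 8 were higher and 30 lower, with a median of -0.52. The lower ones numbered 14 with a filter at a mean of 5. Gfra1, the GDNF receptor subunit usually placed on the ureteric tip, stood at 74.3, 54.9 and 67.1 in Six2+ and at 2.63, 2.34 and 6.41 in Six2- libraries (3.88, SE 0.28, limma adjusted p = 1.03e-05). Cxcr4, a chemokine receptor, stood at 41.2, 45.3 and 39.9 against 3.68, 3.25 and 5.85 (3.07, SE 0.18, limma adjusted p = 3.11e-06). The receptor tyrosine kinase genes Met (2.38, SE 0.16), Ntrk3 (1.15, SE 0.17) and Fgfr1 (1.02, SE 0.15) and the activin receptor gene Acvr2b (1.80, SE 0.21) also rose, with Fgfr1 at 146 ± 23.3. Pdgfra, the receptor of stromal cells, stood at 0.437, 0.961 and 0.179 against 139, 108 and 99.8 (-6.27, SE 0.21, limma adjusted p = 2.11e-07). Agtr2, an angiotensin receptor (-5.32, SE 0.26), and Pdgfrb (-4.66, SE 0.14) fell as well. Il17rd, an inhibitor of FGF signalling, rose by 2.45 (SE 0.19), and so did the growth factor pathway inhibitors Dusp4 (1.91, SE 0.12), Dusp5 (1.37, SE 0.27) and Spred3 (1.29, SE 0.22), while Spry2 (-0.80, SE 0.13) and Spry4 (-0.95, SE 0.18) fell. Of 25 dual specificity phosphatase, Sprouty and Spred genes tested, 6 (24%) were higher and 5 (20%) lower (median -0.03). These shares lie near those over all genes tested. The lower ones numbered 3 without Six2+ replicate 1 or Six2- replicate 1, 2 without Six2- replicate 2 and 3 with a filter at a mean of 5. Of the insulin-like growth factor binding proteins, Igfbp2 rose by 1.73 (SE 0.17) and Igfbp7 (-5.21, SE 0.27), Igfbp3 (-4.61, SE 0.13), Igfbp6 (-3.52, SE 0.27) and Igfbp4 (-0.55, SE 0.13) fell. The Igfbp4 call ended without Six2- replicate 2.

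Axon guidance genes went both ways, with 10 of 38 semaphorin, netrin, slit and receptor genes higher and 16 lower (median -0.36). Ntn1, the ligand netrin-1, stood at 0.687, 2.15 and 0.923 in Six2+ and at 98.3, 109 and 204 in Six2- libraries (-5.91, SE 0.31, limma adjusted p = 1.57e-06). Slit1 stood at 23.8, 15.4 and 32.4 against 0.614, 0.71 and 1.39 (3.67, SE 0.26, limma adjusted p = 9.62e-06). Ntn1 and Slit1 thus lay in opposite sorts. Sema3a fell by 4.19 (SE 0.21), whereas Sema3f rose by 2.11 (SE 0.20) and Sema4g by 2.40 (SE 0.25). Among ephrin genes, Epha2 (1.55, SE 0.17), Efna1 (1.51, SE 0.14) and Ephb2 (0.97, SE 0.16) rose and 5 of 16 fell, by most Epha3 (-2.54, SE 0.50) and Ephb3 (-1.83, SE 0.14). Of 35 synaptic and neurite genes tested, 8 (22.9%) were higher and 12 (34.3%) lower, with a median of -0.07. The higher ones include Lrrn1 at 21.9 ± 4.12 against 2.14 ± 0.799 and the microtubule gene Dcx at 7.48 ± 3.07 against 1.1 ± 0.635. The lower ones include the glutamate receptor gene Gria4 (-4.07, SE 0.16), Stmn2 (-2.92, SE 0.53) and the adhesion gene Cntn4 (-2.41, SE 0.28). With a filter at a mean of 5 these counts were 3 and 2, and with no filter 19 were lower.

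Stromal genes were among the deepest falls. Of 20 cortical and nephrogenic stroma genes, all tested, 18 were lower and none higher, with a median of -3.85. Col3a1, a fibrillar collagen of loose connective tissue, stood at 3.83, 6.57 and 1.86 in Six2+ and at 1009, 851 and 624 in Six2- libraries (-7.43, SE 0.33, limma adjusted p = 6.24e-07). Col1a1 (11.7 ± 5.09 against 680 ± 77.8), Col1a2 (7.95 ± 1.06 against 605 ± 158) and the matrix gene Ecm1 (2.09 ± 1.02 against 215 ± 26.9) behaved alike. Foxd1, the defining regulator of cortical stroma, stood at 44.8, 28.9 and 35.9 in Six2+ and at 71, 63.1 and 104 in Six2- libraries (-1.09, SE 0.22), and its Six2+ level was not near 0. The 20 genes summed to 446 to 497 in the Six2+ and 3403 to 4149 in the Six2- libraries. Of 21 medullary and ureteric stroma genes, 16 were lower, led by the opioid precursor Penk (1.23, 3.41 and 1.44 against 322, 268 and 211), and 3 were higher. Those 3 were Wnt4, which cap cells also express, Fam132a (2.14, SE 0.13) and Proser2 (1.68, SE 0.23).

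Contractile genes followed the stroma. Of 29 genes of the muscle type actin cytoskeleton, 25 were lower and 1 higher (median -1.61). Acta2, smooth muscle actin, stood at 5.21, 2.86 and 2 against 124, 124 and 89 (-4.75, SE 0.26), and Mylk (-4.40, SE 0.12) and Myh11 (-4.02, SE 0.14) fell likewise. Tpm2, a tropomyosin, was the exception (0.91, SE 0.12). The intermediate filament gene of muscle, Des, also ran against its list: it stood at 57.9, 67.8 and 54.9 in Six2+ and at 16.8, 14.6 and 8.02 in Six2- libraries (2.17, SE 0.24), and was the single mural cell gene called higher where 10 of 14 fell. Among those, the pericyte gene Rgs5 fell by 4.18 (SE 0.22), and the renin gene Ren1 was listed at 0, 0.0546 and 0 in Six2+ against 15.7, 19.8 and 3.61 in Six2- libraries. With a filter at a mean of 5 the lower mural cell genes numbered 6. Vim, vimentin, stood at 66.5 ± 19.3 against 399 ± 64.5.

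Markers of blood and vessels lay on the Six2- side. Those near 0 in Six2+ cells enter the test only through their Six2- level, so the counts here are descriptions. Of 15 endothelial genes tested 14 were lower and none higher (median -2.18), and Eng, an endothelial receptor, stood at 0.318 ± 0.128 against 15 ± 4.04. Of 20 macrophage and leukocyte genes 19 were lower and none higher (median -2.75). With a filter at a mean of 5 the lower genes numbered 6 in the endothelial and 6 in the macrophage list. Csf1r, the receptor that defines macrophages, was listed at 0, 0.388 and 0 in Six2+ and at 8.41, 10.5 and 8.79 in Six2- libraries, so that Six2+ replicate 2 was the single Six2+ library with a level above 0. The complement gene C1qb showed the same order, with 0.0447, 0.927 and 0.0597 against 11.9, 19.5 and 12.7. Summed over 22 macrophage genes the Six2+ libraries stood at 7.06, 19.7 and 13.3 and the Six2- libraries at 138, 202 and 182. Of 20 complement and coagulation genes tested, 16 were lower and none higher (median -1.99). Of 8 erythroid and platelet genes 7 were lower and 1 was higher. Several are near-identical haemoglobin genes, whose single levels are uncertain: Hbb-b1 stood at 434, 2382 and 4599 in the Six2- libraries, and the haem enzyme gene Alas2 at 5.72, 32.9 and 144. Replicate 1 was the lowest Six2- library for both.

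Nerve cell genes set 1 Six2- library apart. Dbh, an enzyme of noradrenaline synthesis, stood at 18.3 in Six2- replicate 1 and at 0.0298 and 0.152 in replicates 2 and 3, and Th, the first enzyme of that pathway, at 9.76, 0.0774 and 0.308. Tubb3 (17.6, 0.263 and 0.695) and Prph (11.5, 0.134 and 0.269), cytoskeletal genes of neurons, had the same pattern. None of these 4 passed the test (limma adjusted p = 0.247 for Dbh, 0.191 for Th, 0.169 for Tubb3 and 0.3 for Prph). The 18 genes of the Schwann and neural crest list summed to 99.4 in Six2- replicate 1, to 15.8 and 17.5 in the other Six2- libraries and to 16 to 20.6 in the Six2+ libraries. They were picked for description with their levels known.

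**Figure D4:**
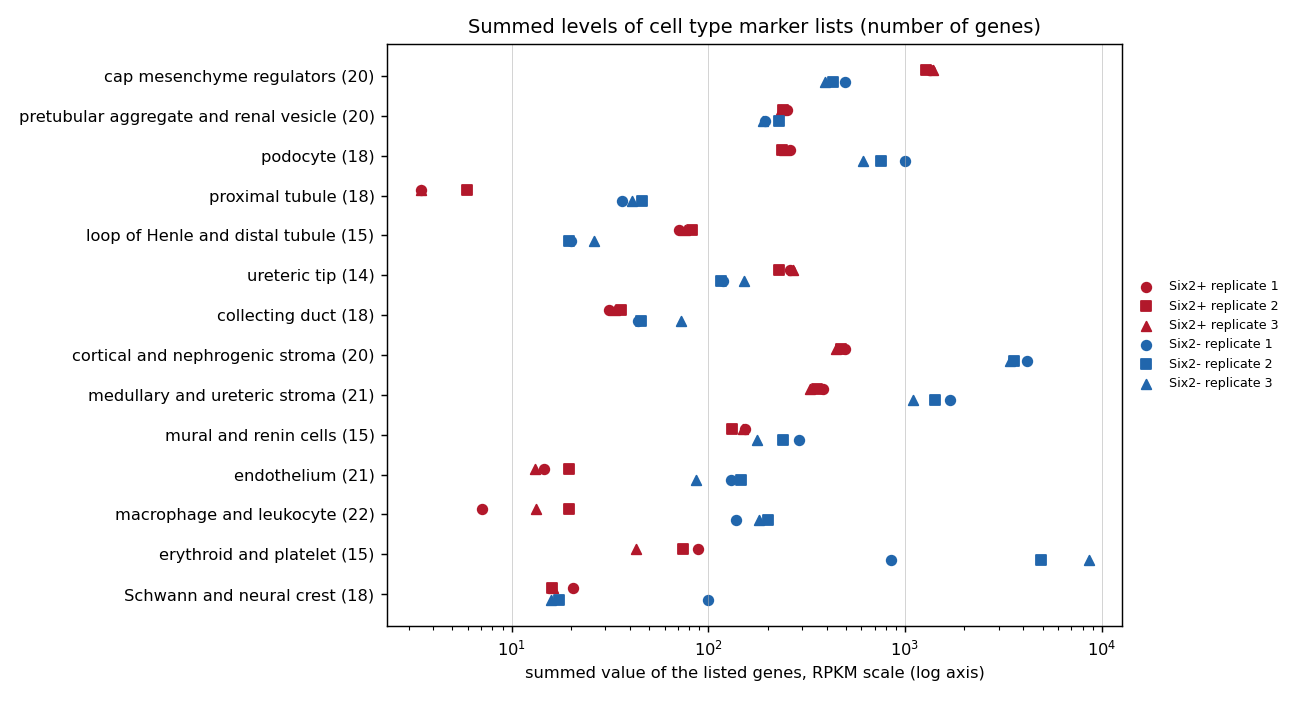
Summed level of each list of cell type genes in each library, on the RPKM scale with a log axis, with the number of genes summed in brackets; red points are Six2+ and blue points Six2- libraries, with a shape for each replicate. The Six2- replicate 1 point at 99.4 stands apart in the Schwann and neural crest row, and stromal sums of 446 to 497 in Six2+ lie below 3403 to 4149 in Six2- libraries.

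Genes of the maturing nephron lay mostly on the Six2- side. All 8 proximal tubule genes tested of 18 listed were lower, among them the transcription factor Hnf4a (0.0614 ± 0.0441 against 3.79 ± 0.644). A gene near 0 in Six2+ cells enters the test only through its Six2- level, so such counts are descriptions. With a filter at a mean of 5, 0 genes of the proximal tubule list and 6 of the podocyte list were lower. Of 16 podocyte genes 12 were lower and none higher (median -1.58), with the surface protein Podxl at 0.668, 0.651 and 0.714 against 46.7, 21.9 and 9.71 (-3.76, SE 0.44). Genes of the pretubular aggregate and renal vesicle, the first steps from progenitor to epithelium, divided, with 6 of 18 higher and 8 lower (median -0.45). Wnt4, Pax8 (53.9 ± 2.09 against 13.5 ± 1.65) and the cadherin gene Cdh4 (36.2, 24.8 and 36.9 against 4.54, 3.97 and 3.4) were among those higher. Lef1, an effector of Wnt signals (3.07 ± 0.16 against 12 ± 2.25), was among those lower. Cdh1, the cadherin of mature epithelium, stood at 0.102, 0.368 and 0.136 in Six2+ and at 2.21, 3.58 and 5.28 in Six2- libraries. Its Six2+ level was thus near 0 in each library, and it stood at 13.4 ± 1.12 in the Cited1+ libraries.

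Several genes named for tubules or ureteric tips were instead high in Six2+ cells. From the list for the distal nephron, 5 of 15 genes were tested and 3 were higher. Ppp1r1a, a phosphatase inhibitor, stood at 27.4, 31.9 and 22.3 in Six2+ and at 2.01, 1.51 and 3.64 in Six2- libraries (3.10, SE 0.23), and the kinase gene Wnk4 at 27.2, 24.8 and 38.4 against 4.91, 3.65 and 4.97 (2.48, SE 0.18). Wfdc2 made the third (1.21, SE 0.36), a call that ended without Six2+ replicates 1 or 2, without Six2- replicate 2 and with no filter. Of 7 ureteric tip genes tested of 14, 4 were higher (Gfra1, Etv4, Etv5 and Sox8) and Wnt11 was lower (2.66 ± 0.338 against 11.2 ± 3.15). Of 8 collecting duct genes tested, 5 were lower, Gata2, Gata3, Cdh1, Calb1 (-1.63, SE 0.36) and Krt8 (-1.16, SE 0.25), and Hoxb7 was higher (1.01, SE 0.17). The lower collecting duct genes numbered 0 with a filter at a mean of 5 and 10 with no filter.

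Genes of protein production rose by small amounts, and their counts depended on single libraries. Of 34 ribosome biogenesis genes, 25 were higher and none lower (median 0.53), among them Fbl, the methyltransferase of ribosomal RNA, at 157, 203 and 147 against 83.7, 106 and 104 (0.78, SE 0.17). None of the 25 reached a log2 difference of 1, and they numbered 15 without Six2- replicate 1. Of 20 aminoacyl-tRNA synthetase genes 9 were higher and none lower (median 0.34), led by Vars (0.69, SE 0.16); these numbered 2 without Six2- replicate 1, 3 without Six2- replicate 2 and 5 when libraries were rescaled to the same total or shifted to the same median. Of 42 mitochondrial ribosome genes 15 were higher and none lower (median 0.33), led by Mrpl23 (1.22, SE 0.16), and these numbered 9 without Six2+ replicate 2 and 6 without Six2- replicate 1. Of 52 splicing genes 10 were higher, a share of 19.2% beside the 20.5% of all genes tested; these numbered 6 without Six2+ replicate 1, 2 without Six2- replicate 1, 2 without Six2- replicate 2, 3 when rescaled, 4 when shifted and 19 with the replicate block. The ribosomal protein share was highest in Six2+ replicate 2, at 23.5%, and its part in these counts was not tested.

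Cilium genes were called higher more often than genes at large, also by small amounts. Of 41 centrosome and cilium assembly genes, 21 (51.2%) were higher and 1 lower, with a median of 0.41. Bbs1, of the complex that carries proteins to the cilium, stood at 5.17, 5.74 and 7.58 against 2.14, 2.35 and 2.7 (1.07, SE 0.16), and Nphp4, of the ciliary base, rose by 1.04 (SE 0.17). Pkd2, the polycystic kidney channel of cilia, was the lower one (17.7 ± 2.21 against 30.5 ± 1.74). The higher members numbered 13 without Six2- replicate 1, 11 without Six2- replicate 2 and 10 when libraries were rescaled to the same total.

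Gldc, the decarboxylase that breaks down glycine, stood at 21.9, 18.3 and 21.4 in Six2+ and at 1.36, 2.26 and 2.66 in Six2- libraries (2.82, SE 0.18, limma adjusted p = 5.01e-06). Amt, of the same cleavage system, stood at 11.3, 11.4 and 11.9 against 4.31, 4.43 and 4.6 (1.20, SE 0.12). Phgdh, the first enzyme of serine synthesis, stood at 190, 214 and 183 against 55.1, 65.9 and 73.2 (1.59, SE 0.15). No Six2- library reached a Six2+ library for these 3 genes. Of 24 genes of serine, glycine and one-carbon metabolism, 8 (33.3%) were higher and 1 lower (median 0.25); Shmt1 (1.03, SE 0.12) and Cth (0.75, SE 0.14) were among the 8, and the folate receptor gene Folr1 was the lower one (-1.77, SE 0.19). Slc1a3, a glutamate transporter, rose by 2.44 (SE 0.13), and Slc12a2, a sodium-potassium-chloride cotransporter, stood at 142, 89.3 and 106 against 20.1, 17.6 and 17.5 (2.53, SE 0.17). Slc40a1, the iron exporter, fell by 3.93 (SE 0.19). Fatty acid binding genes split by member, with Fabp5 at 117 ± 30.6 against 36.9 ± 4.68 and Fabp4, of fat cells and vessels, at 1.29 ± 1.43 against 36.2 ± 14.5. Of 24 cholesterol synthesis genes 3 were higher and 2 lower, with Tm7sf2, a sterol reductase, at 1.53 (SE 0.14), and of the higher ones there were 10 with the replicate block. No replication-dependent histone gene of 23 tested passed in limma at the adjusted threshold.

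**Figure D5:**
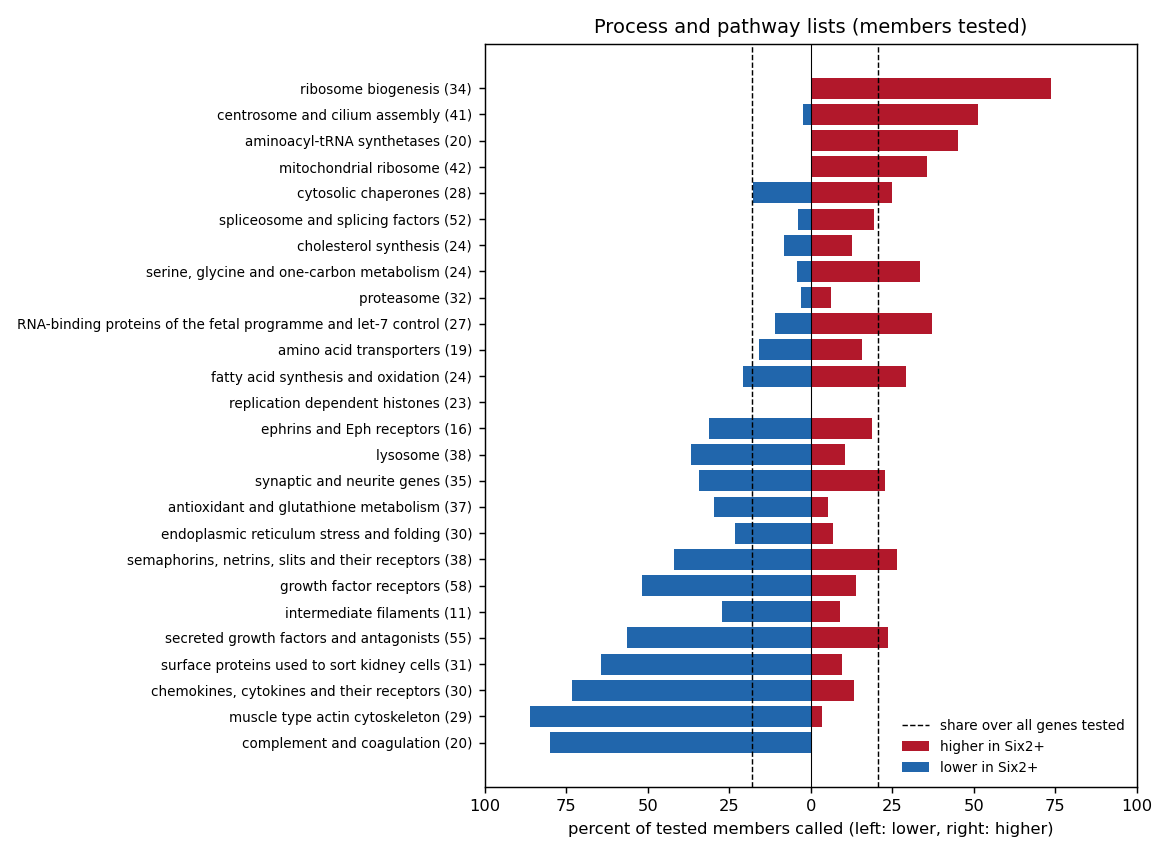
Share of the tested members of each process or pathway list called higher (red, right) or lower (blue, left) in Six2+ cells, in percent, with the number tested in brackets and lists ordered by their median difference. Dashed lines mark the shares over all genes tested, 20.5% higher and 18.1% lower; ribosome biogenesis reaches 73.5% higher, and complement and coagulation and muscle actin genes lie farthest to the left.

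Genes present in 1 sort and near absent in the other were mainly on the Six2- side. A level of at least 1 in every library of one sort and under 0.1 in every library of the other was met by 4 of 24427 genes (0.0164%) for Six2+ and by 114 (0.467%) for Six2- cells. The 4 were Krt15, a keratin of stratified epithelium, at 2.77, 2.79 and 2.86, Matn1, a cartilage matrix protein, at 1.85, 2.03 and 1.92, Clrn1, a membrane protein of hair cells, at 1.86, 1.72 and 1.46, and the unnamed transcript 2610028E06Rik at 1.96, 1.45 and 2.24. Of these, Krt15 alone had a mean of at least 1 over the 6 libraries and was tested. The highest of the 114 were Clca3a1 (23.6, 16.3 and 5.84 in the Six2- libraries), Ren1, the neuropeptide gene Nts (21.3, 13.2 and 3.5), the matrix gene Aspn (11.1, 17.3 and 5.14), Il1rl2, the growth factor Igf1 (6.87, 8.35 and 5.77), the neutrophil gene S100a8 (3.35, 7.12 and 10.2) and the mast cell protease Cpa3 (6.56, 7.26 and 4.81). Clca3a1, Nts, Aspn and Ren1 were each lowest in Six2- replicate 3, whereas S100a8 was highest there. The counts of 4 and 114 were not taken on equal terms. Genes higher by at least 1 in Six2+ cells had medians of 3.08 to 3.29 in the Six2- libraries. Genes lower by at least 1 had medians of 1.05 to 1.12 in the Six2+ libraries. Six2 itself, at 2.72, 2.9 and 17 in the Six2- libraries, missed the limit of 0.1. How this bears on the counts was not tested.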

How the data were processed

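Messenger RNA of flow-sorted kidney cells was sequenced after extraction with the RNeasy micro kit and Kapa stranded library preparation, per the labels' protocols. TopHat2, Partek and the mm10 build are named per the submitters' processing notes; the counting method and its use of strand are not given in the sources used here. The deposited tables call their values TPM, but the totals differ between libraries as RPKM totals do, so the deposited values were read here as RPKM; the test is the one planned for TPM. Rows whose gene names had been turned into dates (27) were dropped. Genes with a mean of at least 1 over the 6 libraries were tested by a moderated linear model with a mean-variance trend, fitted to log2(value + 1) in limma 3.58.1 (R 4.3.3), and p-values were adjusted by Benjamini-Hochberg over the 11882 genes, with a threshold of 0.05. The procedure was tested on simulated data with independent libraries and fewer changed genes than were called here. Such data do not hold the pairing of libraries described below, so they do not show how the test behaves under it. Depth was estimated from the steps between low values, of which 60.3% to 68.0% were whole reads within 0.05 of a read where chance gives 10%, and covers counting error only.

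Replicate numbers are shared between the sorts. The deviations of same-numbered libraries from their group means correlated at 0.470, 0.455 and 0.404, so that the numbers pair the libraries; this comes from the data, not the labels. The fit without the block is the one reported. The members and lists were chosen with earlier results of these data known. Genes named are the leading genes by difference and by level, the leading called genes of each list, the neighbours of Six2, and further genes named after their values were seen. Promoters of fewer than 80% of the changed genes were available, so a check of base composition over gene sets is void.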

Additional observations from a re-analysis of the deposited data

How the results depend on the processing

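No gene called higher or lower was called in the opposite direction under any of the 13 alternatives. All of these reuse the same libraries, so such a change was unlikely from the start. Genes called higher numbered 1546 when libraries were rescaled to the same total and 1618 to 2382 when 1 library was left out, with the fewest without Six2- replicate 2. A stricter filter at a mean of 5, under which 8717 genes were tested, left 1230 lower genes, 398 higher by at least 1 and 634 lower by at least 1. Leaving out 1 library gave 1673 to 2206 lower genes, 551 to 644 higher by at least 1 and 1133 to 1297 lower by at least 1. With the replicate block, which follows the pairing of the libraries, 3603 genes were higher and 2632 lower, and it changed no call of the 358 named genes that were tested; beside splicing and cholesterol synthesis it also moved counts of lists not described here. Higher genes made up 53.2% of calls, 45.4% without a filter and 59.6% with the stricter one. Among the named genes, uncalled ones near 0 changed sign: Elf2 and Klf3 were -0.04 and -0.01 when rescaled, -0.04 and -0.02 when shifted to the same median, -0.02 and -0.09 without Six2+ replicate 1 and -0.08 and -0.06 without Six2- replicate 3. Smad5 was -0.06, -0.06, -0.12 and -0.06 under these settings. Nr2f2 was 0.07 without Six2+ replicate 2 and 0.00 without Six2- replicate 1, and Camkmt was 0.01 without Six2+ replicate 1. With 1 library left out these genes ranged from -0.15 to 0.01 (Camkmt), -0.08 to 0.12 (Elf2), -0.09 to 0.18 (Klf3), -0.13 to 0.07 (Nr2f2) and -0.12 to 0.12 (Smad5). In all, 158 values of single genes lost their call under an alternative; the cause was not tested. Of the libraries, Six2- replicate 3 had the fewest implied reads, 25.8 M, which limits the precision of low levels there.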
